A study of Mus musculus with 6 samples.

Results

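The 39 Hox genes of the mouse were described in subcutaneous tumours of KLN205, a line established from a squamous cell carcinoma of the mouse lung. Members were all rows of the expression table whose gene symbol was Hoxa, Hoxb, Hoxc or Hoxd followed by a number. This gave 38 rows, naming 39 genes, of 22206 rows (transcript clusters) on the Clariom S Mouse array. The rule used the symbols only and no measured value, though it was chosen with earlier results of these data known.

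Tumours were started by injecting 1000000 cells, suspended in 50 µL of medium with 100 µL of Matrigel (a basement membrane extract), under the skin of the left flank. Total RNA of 3 tumours treated with an antibody against the T cell receptor PD-1 and of 3 control tumours was read on 1 array each. Antibody was given into the peritoneum at 250 µg every 3 days, and the treatment protocol names an IgG2a isotype antibody for the other arm, whereas the sample labels call the controls untreated with anti-PD-1. The series text describes surviving cells 7 days after treatment, but the sample labels give tumour tissue for all 6 arrays, so host cells are part of each sample. The sources used here do not give the strain, sex or age of the mice. The labels number the tumours without saying that each came from a different animal, so the p-values reflect no more than the spread among these 6 samples, which may be technical. With 3 arrays per group, the number of arrays limits the precision.

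Hox genes encode transcription factors that bind DNA through a homeodomain, and in mammals they lie in 4 clusters named A to D. Genes with low numbers stand at one end of each cluster and act toward the head of the embryo, and those with high numbers stand at the other end and act toward the tail and in the limbs. Many adult tissues, skin and connective tissue among them, keep part of the Hox pattern of the body site where they formed. In the lung the A and B clusters are best known, with Hoxa5 required for normal airway formation in the mouse.

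The array of control replicate 3 was unlike the rest. Its correlation with each of them over all clusters (Pearson's r) was between 0.908 and 0.936, against 0.973 to 0.987 among the other 5. The per-array score of a gene list was defined as the median deviation, in log2 units, of its genes from their own 6-array means. In control replicate 3 this score was 4.86 for 15 adipocyte markers, against -2.45 to 0.55 elsewhere, and -4.38 for 15 squamous markers, against -1.07 to 2.66. All 15 squamous markers were called expressed in both groups, against 79% of all clusters. Krt6a and Krt6b share a row, which is counted for each of them in the squamous counts and scores. Of 15 lung epithelial markers, 10 were called in both groups and 5 in neither, where the share of all clusters was 14.7%. Among the 5 was Nkx2-1, the lineage factor of lung epithelium, at 3.26 to 3.51 on the log2 signal scale. Among the 10 was Abca3, at 10.37 to 11.73. Differences are therefore also given without control replicate 3 where that moved them clearly. In whole tumours, fewer cells of a type and less RNA per cell cannot be told apart.

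A central block of each Hox cluster was called expressed, and the genes with the highest numbers were mostly not. The calls are those of the authors' deposited table, which marks each row as expressed or not in each group. They are not a cut on signal, since Hoxd13 was called in both groups with log2 signals of 2.90 to 3.50 and Hoxb9 in neither with 3.99 to 5.39. Signals of different rows come from different probes and are therefore not ranked against each other. In all, 26 of 38 Hox rows (68.4%) were called expressed in both groups, against 79% of all clusters with a gene symbol. A further 9 rows (23.7%) were called in neither group, against a background of 14.7%. Calls in a single group were rare among all clusters, at 3.94% for control only and 2.41% for anti-PD-1 only. Among Hox genes they were Hoxb1 and Hoxd10, called in control only, and Hoxd12, called in anti-PD-1 only.

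In the HoxA cluster on chromosome 6, 9 of 11 rows were called in both groups, and these formed an unbroken run that ended at Hoxa10. The uncalled pair at the end was Hoxa11 and Hoxa13, which pattern the limbs and the genital tract. In the HoxB cluster on chromosome 11, 7 of 10 rows were called in both groups, again in an unbroken run, from Hoxb2 to Hoxb8. Hoxb9 and Hoxb13, the latter a prostate gene, were called in neither. In the HoxC cluster on chromosome 15, 6 of 9 rows were called in both groups, from Hoxc4 to Hoxc10 without a gap. Hoxc11, Hoxc12 and Hoxc13, the last of them needed for hair and nails, were called in neither.

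In the HoxD cluster on chromosome 2, 4 of 8 rows were called in both groups, but not all of them in a single run. The row for Hoxd3 and Hoxd4, Hoxd8 and Hoxd9 followed one another among the rows. The digit gene Hoxd13 stood apart from them, beyond Hoxd10, Hoxd11 and Hoxd12. Hoxd1 and Hoxd11 were called in neither group. By number, all 11 rows of paralogues 5 to 8 were called in both groups, 9 of 11 rows of paralogues 1 to 4, and 6 of 16 rows of paralogues 9 to 13. Of the 9 rows with numbers 11 to 13, 7 were called in neither group, 1 in anti-PD-1 only and 1 in both.

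**Figure D1:**
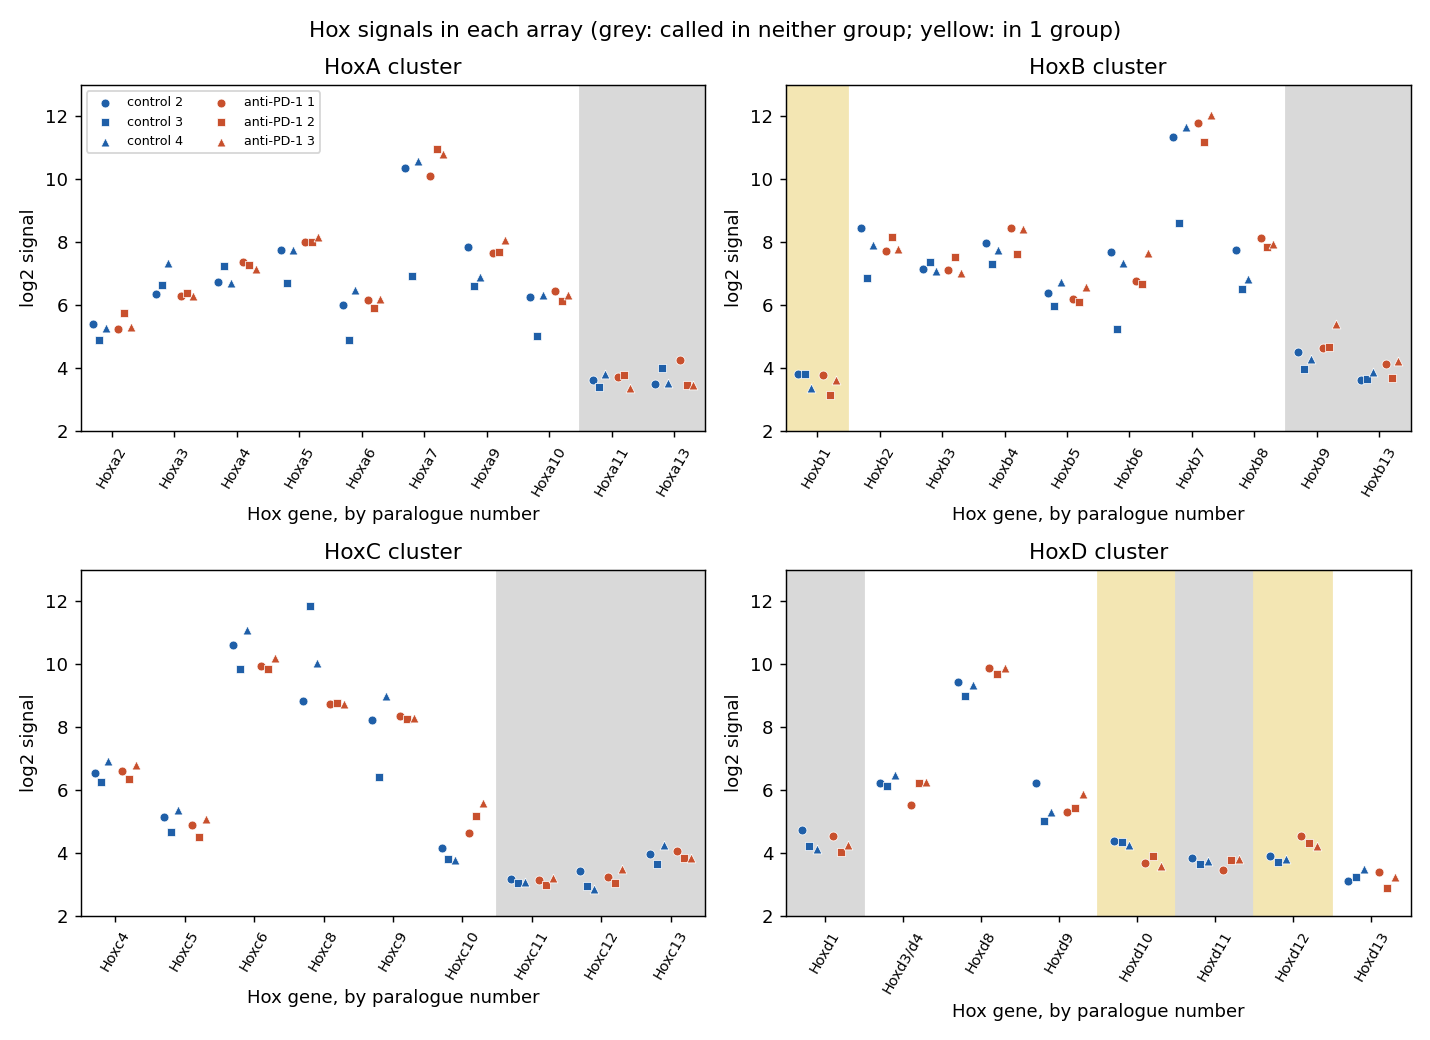
Log2 signal (vertical axis) of the Hox rows reported singly, in each of the 6 arrays, by cluster and paralogue number (horizontal axis). Blue points are control and red points anti-PD-1 arrays. Grey bands mark the 9 rows the authors called in neither group and yellow bands the 3 rows called in 1 group, and the heights of different rows are not comparable. In Hoxa7 and Hoxb7 the control replicate 3 point (blue square) lies far below the other 5, and in Hoxc8 it lies above them.

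Of the 38 rows, 4 carry more than 1 gene name. Hoxd3 shares a row with Hoxd4, Hoxa7 with the noncoding RNA Mira, Hoxb4 with Mir10a and Hoxa9 with Mir196b, and the signals of the partners cannot be separated. The Hoxa3 row also spans the positions of Hoxa4, Hoxa5 and Hoxa6. The microRNAs of the Hox clusters are shown because their genes are interleaved with the Hox genes and because miR-196 is known to cleave Hoxb8 mRNA in the mouse. Mature sequences are from RefSeq (GRCm38.p6), 5′ to 3′, with the seed, bases 2 to 8, in capitals.
mmu-miR-10a-5p: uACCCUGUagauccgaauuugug
mmu-miR-10b-5p: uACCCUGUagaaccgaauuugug
mmu-miR-196a-5p: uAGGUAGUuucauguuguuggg
mmu-miR-196b-5p: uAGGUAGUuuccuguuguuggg
The members of each pair share their seed and differ by 1 base, U12A from miR-10a to miR-10b and A12C from miR-196a to miR-196b, counted from the 5′ end. Mir10a lies upstream of Hoxb4 on chromosome 11, Mir10b near Hoxd4 on chromosome 2, the copies of Mir196a near Hoxb9 and Hoxc10, and Mir196b between Hoxa9 and Hoxa10. The row of Hoxa9 with Mir196b gave log2 signals of 7.84, 6.61 and 6.91 in control replicates 2, 3 and 4 and of 7.65, 7.69 and 8.08 in anti-PD-1 replicates 1, 2 and 3. Its difference was 0.69 ± 0.35 (log2, anti-PD-1 minus control, ± SE), and the groups overlapped. It was 0.43 without control replicate 3 and 1.05 without control replicate 2. The row of Hoxb4 with Mir10a gave 7.98, 7.31 and 7.76 in control and 8.44, 7.64 and 8.42 in anti-PD-1, with overlap, and its difference was 0.48 with all arrays and 0.30 without control replicate 3. Hoxb4 and Hoxa9 both act in blood stem cells. The row of Hoxd3 and Hoxd4 gave 6.23, 6.13 and 6.49 in control and 5.51, 6.21 and 6.24 in anti-PD-1, and its groups overlapped as well.

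Expressed Hox genes took their lowest value most often in control replicate 3, and the departure was widest for the middle of the clusters. Among the 26 rows called in both groups, control replicate 3 was the lowest array in 17 (65.4%), against 30.9% of all clusters called in both groups. For paralogues 5 to 8 it was the lowest in 8 of 11 rows, and their score was -0.98 in that array and between -0.04 and 0.45 in the other 5. The scores of paralogues 1 to 4 and 9 to 13 called in both groups were also lowest there, at -0.31 and -0.78. The same array had the lowest squamous and the highest adipocyte score, and the part of these in the Hox values was not tested. In all 11 rows of paralogues 5 to 8 the standard deviation (SD) was larger in control than in anti-PD-1 arrays, while this held for 64.7% of all clusters. Without control replicate 3 it held in 5 of these 11 rows, against 47.9% of all clusters, so the excess rested on that array.

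**Figure D2:**
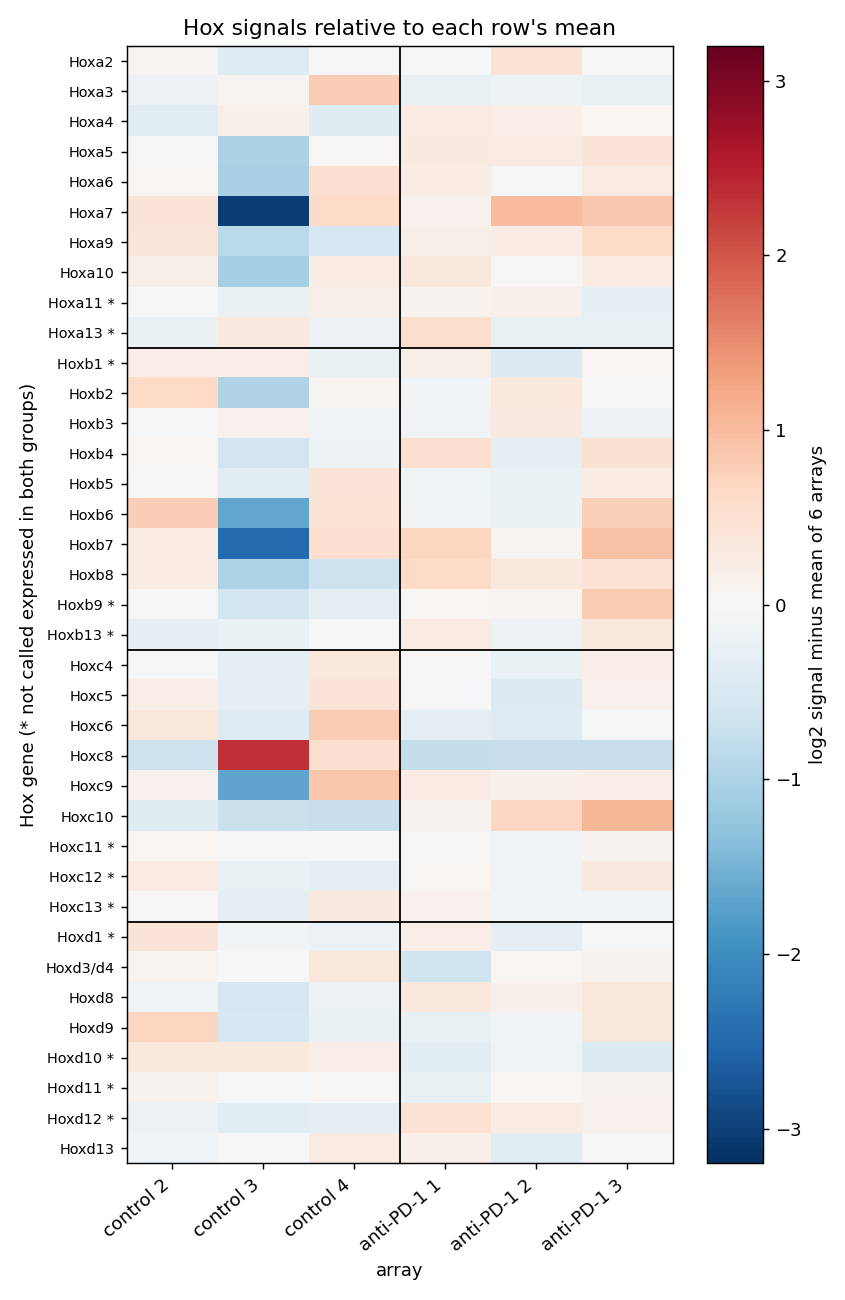
Log2 signal of the Hox rows reported singly, each minus its mean over the 6 arrays (colour), with rows ordered by cluster and paralogue number and columns by array; a star marks rows not called in both groups. The control replicate 3 column holds the deepest blue, at Hoxa7 and Hoxb7, and the deepest red, at Hoxc8.

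The spread over the 6 arrays passed 2 log2 units in 5 of 38 Hox rows (13.2%), near the 15% of all clusters. These were Hoxa7, Hoxb6, Hoxb7, Hoxc8 and Hoxc9, all of the central or neighbouring paralogues. The row of Hoxa7, which patterns the thoracic spine (chromosome 6, mm10, 52214491 to 52221854), read 10.36, 6.92 and 10.57 in control replicates 2, 3 and 4 and 10.10, 10.95 and 10.81 in anti-PD-1 replicates 1, 2 and 3. Control replicate 3 was thus 3.65 below the median of the other 5 arrays, which spanned 0.85. The difference between groups was 1.34 ± 0.95 (SE), and 0.16 without control replicate 3.

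Hoxb7, a thoracic gene of the B cluster (chromosome 11, 96286623 to 96290163), was also lowest in control replicate 3. It read 11.33, 8.62 and 11.65 in control and 11.79, 11.18 and 12.05 in anti-PD-1 arrays. Its difference of 1.14 ± 0.78 fell to 0.18 without control replicate 3. Its neighbour Hoxb6 (96292476 to 96301569) read 7.68, 5.24 and 7.34 in control and 6.77, 6.69 and 7.65 in anti-PD-1 arrays. With 6 arrays its difference was 0.28 ± 0.65, and without control replicate 3 it turned to -0.47.

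Hoxc9, which acts in thoracic motor neurons (chromosome 15, 102976439 to 102985099), read 8.23, 6.41 and 8.98 in control and 8.35, 8.24 and 8.30 in anti-PD-1 arrays. Its difference turned from 0.42 ± 0.61 to -0.31 without control replicate 3. In the A cluster, Hoxa6 read 6.00, 4.91 and 6.47 in control and 6.17, 5.90 and 6.21 in anti-PD-1, so that its 0.30 ± 0.40 became -0.14. Hoxa5, the airway gene, read 7.74, 6.72 and 7.77 in control and 8.02, 8.01 and 8.16 in anti-PD-1. All 3 anti-PD-1 values of Hoxa5 lay above the controls, at a difference of 0.65 ± 0.32 with all arrays and 0.31 without control replicate 3.

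Hoxc8 went the other way. This thoracic gene (chromosome 15, 102990539 to 102994267), which lies between Hoxc9 and Hoxc6, read 8.84, 11.84 and 10.03 in control replicates 2, 3 and 4 and 8.73, 8.76 and 8.74 in anti-PD-1 replicates 1, 2 and 3. Control replicate 3 was highest, and every control lay above every anti-PD-1 value, though control replicate 2 by only a small step. The anti-PD-1 arrays were nearly equal, at 8.74 ± 0.02 (SD, n = 3), against 10.24 ± 1.51 in control. The difference was -1.49 ± 0.69 (limma, adjusted p = 0.522), and -0.69 without control replicate 3. Hoxc8 was the only one of the 26 rows called in both groups that peaked in control replicate 3. Over all clusters called in both groups that share was 26.8%.

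No Hox gene passed the test of anti-PD-1 against control after adjustment. The comparison asks what sets tumours remaining after PD-1 blockade apart from controls. With limma fitted over 22203 clusters and Benjamini-Hochberg adjustment, 0 of 38 Hox rows were called at an adjusted p under 0.05, where the background was 1 cluster (0.0045%). Without correction, 6 of 38 (15.8%) had p under 0.05, against 9.78% of all clusters, 5 higher in anti-PD-1 (5.25% of all clusters) and 1 lower (4.54%). With 1 array left out in turn this count ran from 1, without anti-PD-1 replicate 1, to 8, without control replicate 2; it was 2 when either control replicate 4 or the third anti-PD-1 array was dropped. The authors' deposited table gives p-values for the same 6 arrays. It has 6 Hox rows under 0.05, all 6 of them also under that level with limma, and its smallest FDR over Hox rows is 0.509. For these rows its p-values lie close to those of limma, so they are not separate support. The groups did not overlap in 9 rows (23.7%), against 16.6% of all clusters, 7 of them higher in anti-PD-1 (8.89% of all clusters) and 2 lower (7.74%).

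Hoxc10, a gene of the lumbar spine and hindlimb (chromosome 15, 102966796 to 102971898), had the smallest p. Its signal was 4.14, 3.81 and 3.78 in control replicates 2, 3 and 4 and 4.62, 5.17 and 5.58 in anti-PD-1 replicates 1, 2 and 3. The lowest anti-PD-1 array exceeded the highest control, and the groups read 3.91 ± 0.20 and 5.12 ± 0.48 (SD, n = 3 each). The log2 difference was 1.21 ± 0.29 (SE), or 2.32-fold, with an adjusted p of 0.500 by limma. Its unadjusted p stayed under 0.05 with each array left out in turn, with a highest value of 0.0173, and the difference stayed between 0.99 and 1.47. It was the only Hox row for which all 6 of these p-values were under 0.05. Without control replicate 3 the difference was 1.16. Hoxc10 was called in both groups, but its control signals were low, within the range of Hoxc13 (3.64 to 4.25), which was called in neither. Different rows have different probes, and what low signal did to the 2.32-fold estimate was not tested.

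Hoxb8, a thoracic gene also active in early myeloid cells (chromosome 11, 96281905 to 96285325), read 7.75, 6.52 and 6.83 in control and 8.13, 7.84 and 7.94 in anti-PD-1 arrays. The groups did not overlap, but control replicate 2 was within 0.1 of the lowest anti-PD-1 value. The difference was 0.94 ± 0.34 (limma, adjusted p = 0.500), and 0.68 without control replicate 3, where the unadjusted p rose above 0.05. With 1 array left out in turn, the unadjusted p stayed under 0.05 in only 1 of 6 fits. Hoxd8 (chromosome 2, 74704615 to 74707933) read 9.42, 8.99 and 9.35 in control and 9.88, 9.69 and 9.89 in anti-PD-1 arrays, again without overlap. It differed by 0.57 ± 0.21 (limma, adjusted p = 0.500), and by 0.43 without control replicate 3, again with an unadjusted p above 0.05. For Hoxd8 the unadjusted p stayed under 0.05 in 2 of the 6 fits that left out 1 array.

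The limb genes Hoxd10 and Hoxd12, on either side of Hoxd11, differed in opposite directions at low signal. Hoxd10 (chromosome 2, 74691090 to 74695106) read 4.37, 4.36 and 4.24 in control and 3.67, 3.89 and 3.59 in anti-PD-1 arrays, where it was not called expressed. By the group means it was 1.52-fold higher in control, a difference of -0.61 ± 0.19 (limma, adjusted p = 0.500), and -0.59 without control replicate 3. Hoxd12 (74674929 to 74677706) read 3.89, 3.71 and 3.80 in control, where it was not called, and 4.55, 4.31 and 4.21 in anti-PD-1 arrays. By the group means it was 1.47-fold higher in anti-PD-1 (0.56 ± 0.20, limma, adjusted p = 0.500). It differed by 0.51 without control replicate 3, where its unadjusted p rose above 0.05. With 1 array left out in turn, the unadjusted p stayed under 0.05 in 4 of 6 fits for Hoxd10 and in 2 for Hoxd12. These folds are estimates from the group means and not lower limits, and they carry the same error. No value lay below the lowest signal called expressed on its array, which was 2.65 to 2.84 over the 6 arrays. The calls are not a cut on signal, so this does not show that an uncalled group was expressed. Hoxb1, a hindbrain gene called in control only, read 3.80, 3.80 and 3.38 in control and 3.77, 3.14 and 3.64 in anti-PD-1. Its group means were 1.10-fold apart, higher in control, with overlapping groups.

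Hoxb9 was also among the rows whose groups did not overlap, at 4.52, 3.99 and 4.29 in control and 4.64, 4.68 and 5.39 in anti-PD-1. It was called expressed in neither group, so no fold is given. Hoxd9 read 6.21, 5.01 and 5.30 in control and 5.29, 5.42 and 5.88 in anti-PD-1 arrays, a difference of 0.02 ± 0.36 that became -0.23 without control replicate 3, and its groups overlapped. The row of Hoxc6 read 10.62, 9.85 and 11.07 in control and 9.95, 9.84 and 10.19 in anti-PD-1. It overlapped through control replicate 3, and its difference was -0.52 ± 0.34 with that array and -0.85 without it. Hoxa4 read 6.74, 7.26 and 6.71 in control and 7.36, 7.29 and 7.16 in anti-PD-1. It too overlapped through control replicate 3, and its difference widened from 0.37 ± 0.23 to 0.55 without that array.

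**Figure D3:**
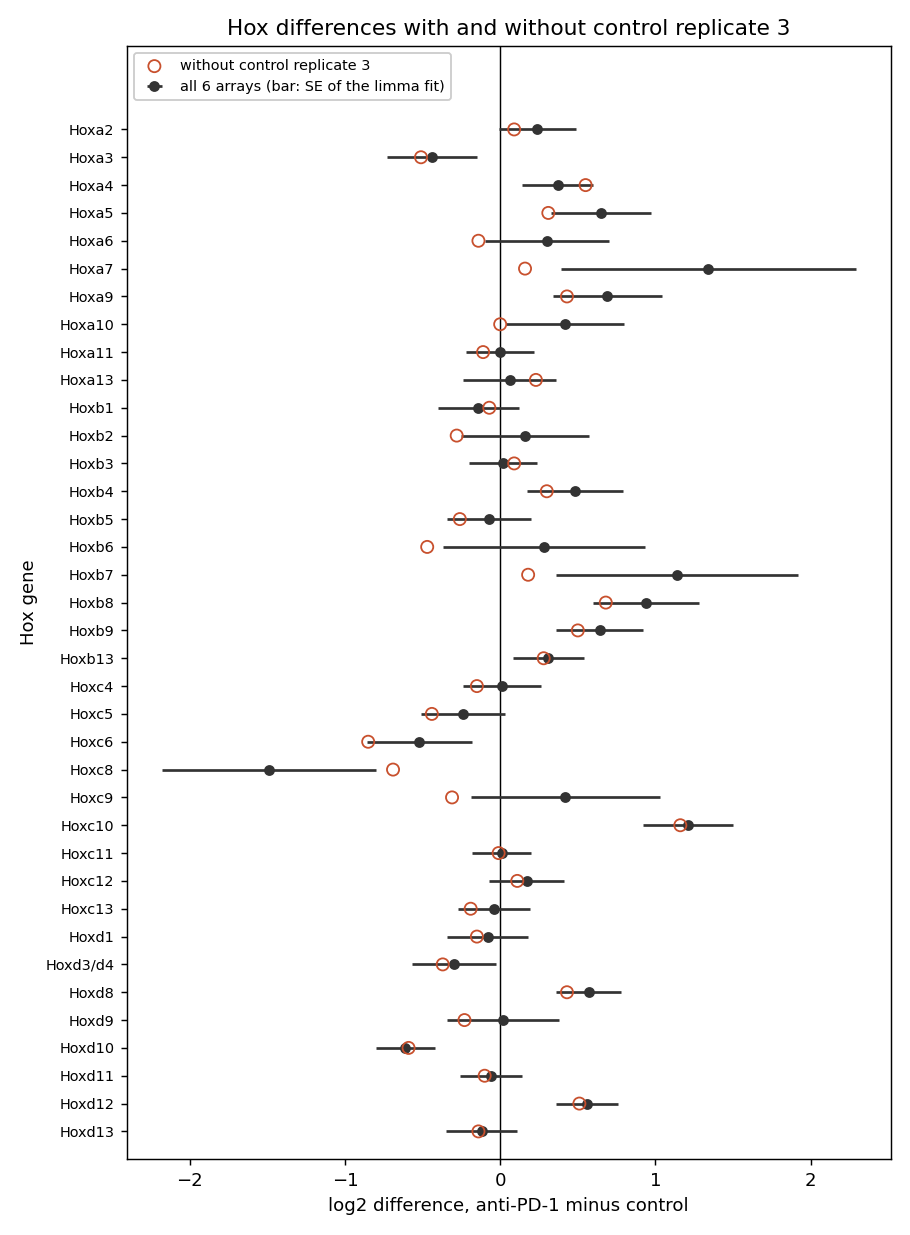
Log2 difference, anti-PD-1 minus control (horizontal axis), of the Hox rows reported singly (vertical axis). Filled points with bars are the limma estimate ± SE from 6 arrays, and open circles the estimate without control replicate 3. Hoxa7 and Hoxb7 move from 1.34 and 1.14 to 0.16 and 0.18, while Hoxc10 and Hoxd10 keep their place.

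As a group, the Hox genes had no common direction once control replicate 3 was left out. With all arrays 25 of 38 rows were higher in anti-PD-1 (65.8%, against 51.6% of all clusters), and the median difference was 0.16, against 0.02 over all clusters. Without control replicate 3 17 were higher and 21 lower, against 52% of all clusters higher, with a median of -0.04, again against 0.02. At unadjusted p under 0.05 there were then 4 rows, against a background of 8.61%, namely Hoxa4 and Hoxc10 higher and Hoxc6 and Hoxd10 lower. The groups did not overlap in 12 of 38 rows then, against 24.7% of all clusters.

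By cluster, the median difference was 0.37 for HoxA, where 9 of 11 rows were higher, and 0.29 for HoxB, where 8 of 10 were. It was 0.01 for HoxC, with 5 of 9 higher, and -0.07 for HoxD, with 3 of 8. Without control replicate 3 the medians were 0.16, 0.14, -0.19 and -0.14, with 7, 6, 2 and 2 rows higher. The difference between clusters was not tested. By number the medians were 0.02 for paralogues 1 to 4, 0.30 for 5 to 8 and 0.11 for 9 to 13, and -0.07, -0.14 and -0.01 without control replicate 3.

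**Figure D4:**
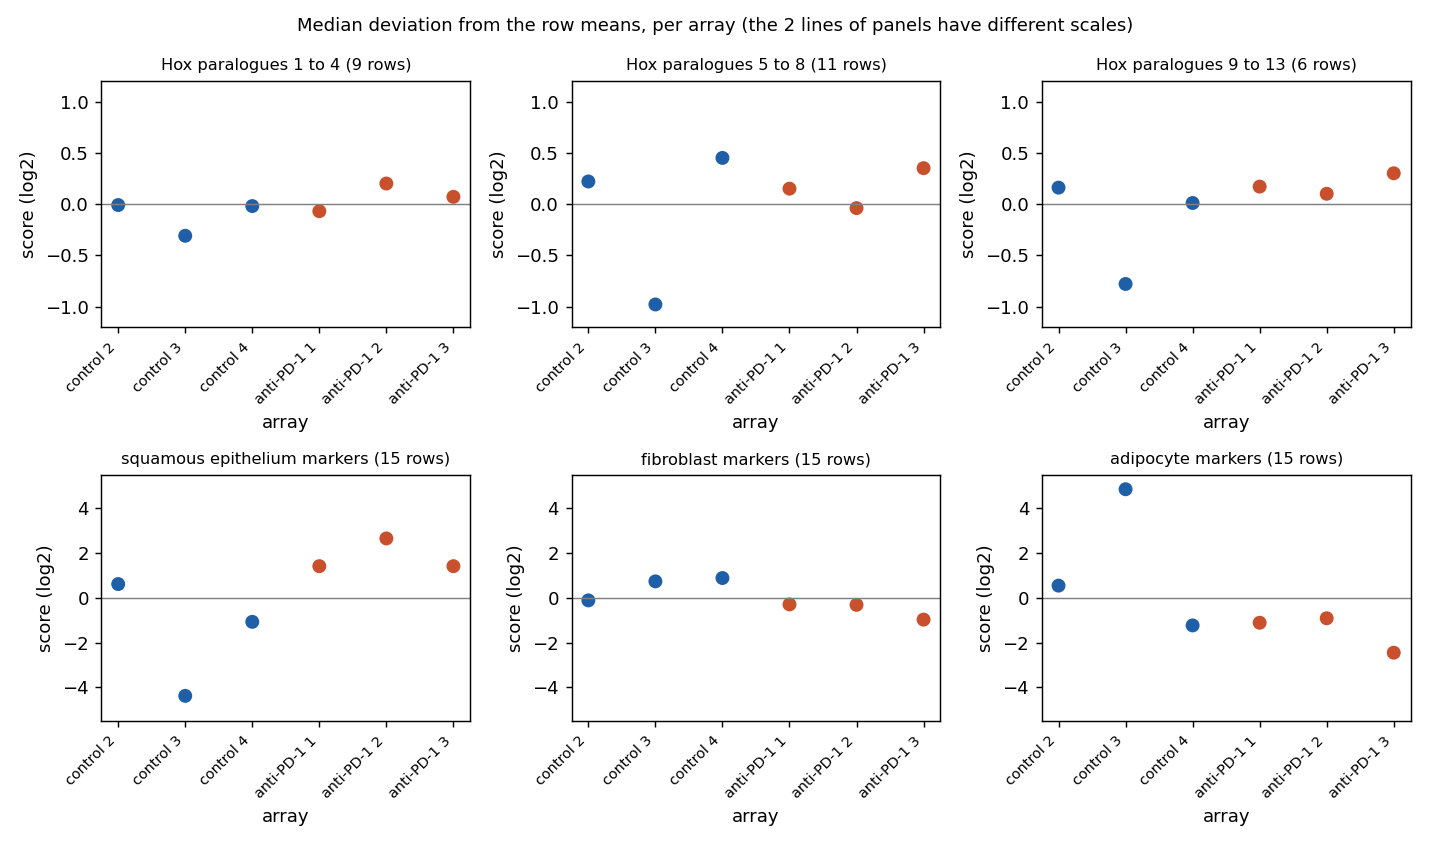
Score per array (vertical axis, median log2 deviation from the row means) for the Hox rows called in both groups, by paralogue number, and for 3 lists of cell type markers; blue is control and red anti-PD-1. Control replicate 3 has the lowest score in all 3 Hox panels and in the squamous panel, at -4.38, and the highest in the adipocyte panel, at 4.86. The upper and lower panels have different scales.

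Scores of the squamous, fibroblast and endothelial markers lay apart between the groups, while those of the adipocyte, mammary and skeletal muscle markers overlapped. The squamous score was -4.38 to 0.62 in control and 1.42 to 2.66 in anti-PD-1 arrays, with 15 of 15 markers higher in anti-PD-1 and a median difference of 3.65, or 2.09 without control replicate 3. The row shared by Krt6a and Krt6b is counted for each of them in these values. The fibroblast score was -0.11 to 0.89 in control and -0.97 to -0.29 in anti-PD-1, with 12 of 15 lower, among them Fap at -2.21 (-1.80 without control replicate 3). The 3 higher fibroblast markers were Fbn1 (0.96 ± 0.27) and Twist2 (0.61 ± 0.25), both without overlap, and Thy1 (0.13 ± 0.48). The endothelial score was -0.01 to 1.31 in control and -0.79 to -0.36 in anti-PD-1. The adipocyte score was -1.23 to 4.86 in control and -2.45 to -0.91 in anti-PD-1 arrays, with overlap. Of the adipocyte markers 14 of 15 were lower in anti-PD-1, with a median difference of -2.88, or -1.07 without control replicate 3. Of 15 mammary epithelial markers 12 were lower (median -0.79, or -0.35 without that array), and their score was highest in control replicate 3, at 1.41, against -0.67 to 0.22 elsewhere. The 3 higher mammary markers were Krt8 (0.99 ± 0.78), Krt18 (0.96 ± 0.54) and Epcam (0.70 ± 0.33), the last without overlap. The milk protein gene Csn2 read 13.68, 16.21 and 5.22 in control replicates 2, 3 and 4 and 5.13, 5.53 and 5.85 in anti-PD-1 arrays, so it was high in 2 of the 3 controls. Skeletal muscle scores lay between -0.73 and 2.04 in control and between -2.80 and 0.93 in anti-PD-1 arrays. None of these markers passed the adjusted threshold, and their part in the Hox values was not tested.

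Promoters are shown for Hoxb8 and Hoxd8, which were higher in all anti-PD-1 arrays, and for Hoxa7, which varied most. RefSeq sequence of the 250 bases before the start site was matched for 22 of the 39 genes. Capitals mark matches, on either strand, to TGATNNAT, the joint site of Hox and Pbx proteins, to TATAA and to CCAAT. All are given 5′ to 3′ on the gene's strand.
Hoxb8, chr11:96281655-96281904 (GRCm38.p6, + strand): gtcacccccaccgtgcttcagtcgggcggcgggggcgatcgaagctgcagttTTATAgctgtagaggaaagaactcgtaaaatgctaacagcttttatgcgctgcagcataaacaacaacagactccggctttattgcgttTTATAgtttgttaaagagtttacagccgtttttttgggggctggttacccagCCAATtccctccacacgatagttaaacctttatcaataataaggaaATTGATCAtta
Hoxd8, chr2:74704365-74704614 (GRCm38.p6, + strand): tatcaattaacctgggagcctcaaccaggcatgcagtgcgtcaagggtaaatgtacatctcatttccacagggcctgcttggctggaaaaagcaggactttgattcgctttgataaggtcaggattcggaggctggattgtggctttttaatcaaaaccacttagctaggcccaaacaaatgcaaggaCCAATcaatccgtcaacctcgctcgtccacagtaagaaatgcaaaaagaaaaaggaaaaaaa
Hoxa7, chr6:52218574-52218823 (GRCm38.p6, - strand): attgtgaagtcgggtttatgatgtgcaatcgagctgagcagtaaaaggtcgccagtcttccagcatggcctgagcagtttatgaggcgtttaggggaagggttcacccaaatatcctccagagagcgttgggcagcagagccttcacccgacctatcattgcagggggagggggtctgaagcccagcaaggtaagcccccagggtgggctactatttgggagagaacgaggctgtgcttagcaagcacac
The Hoxb8 window held 1 match to TGATNNAT, 2 to TATAA and 1 to CCAAT, that of Hoxd8 1 to CCAAT, and that of Hoxa7 none. Among the 22 Hox promoters 3 (13.6%) held TGATNNAT, 4 (18.2%) TATAA and 13 (59.1%) CCAAT, against 7.91%, 23.5% and 34.5% of 27025 promoters. Their median GC content was 56.8%, with a range of 40.4% to 80%, against 52% for all. These matches describe letters and do not show binding.

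The DNA-binding partners of Hox proteins gave no call between the groups. All 9 TALE homeodomain genes, which encode the Pbx, Meis and Pknox proteins, were called expressed in both groups, against 79% of all clusters. None had p under 0.05, against 9.78% of all clusters. Their groups overlapped in every case, where 16.6% of all clusters had no overlap. These 9 genes are too few to tell such counts from those shares. The median difference was -0.03. Pknox1, with the smallest p, differed by -0.47 ± 0.28, Pknox2 by -0.84 ± 0.59 and Meis2 by -0.57 ± 0.40. These differences were -0.27, -0.47 and -0.38 without control replicate 3.

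Polycomb proteins keep Hox genes silent through histone marks, and trithorax proteins oppose them. Of 29 Polycomb genes, all called in both groups, 17 were higher and 12 lower, with a median of 0.14, and 1 (3.45%) had p under 0.05, a share below the 9.78% of all clusters. That was Scmh1, a subunit of Polycomb repressive complex 1, which read 7.20, 6.63 and 7.02 in control and 7.70, 7.60 and 7.81 in anti-PD-1, without overlap (0.75 ± 0.23, adjusted p = 0.500). Of 16 trithorax genes and H3K27 demethylases, 6 were higher and 10 lower (median -0.13), and 2 (12.5%) had p under 0.05, both lower, close to the 9.78% of all clusters and 1 without control replicate 3. They are named for their p alone. Kmt2a, the histone methyltransferase that maintains Hox expression, read 11.47, 11.45 and 12.02 in control and 10.88, 10.99 and 11.24 in anti-PD-1 (-0.61 ± 0.24). Kmt2c differed by -0.66 ± 0.25, and for both genes the groups did not overlap.

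Among 15 measured upstream regulators of Hox genes, of 17 listed, 5 (33.3%) had p under 0.05 (2 higher and 3 lower), against 9.78% of all clusters. There were 3 without control replicate 3, and none passed after adjustment. Aldh1a2, an enzyme that makes retinoic acid, the classic inducer of Hox genes, read 7.47, 7.15 and 7.36 in control and 6.40, 5.88 and 6.15 in anti-PD-1 arrays. The groups were well apart, at a difference of -1.18 ± 0.22 (limma, adjusted p = 0.471), and -1.27 without control replicate 3. Gmnn encodes geminin, a replication inhibitor that also binds Hox proteins. It read 7.83, 6.80 and 7.82 in control and 9.12, 8.88 and 9.03 in anti-PD-1, a difference of 1.53 ± 0.32 (limma, adjusted p = 0.500). Egr2, a driver of Hox genes in the hindbrain and a regulator in immune cells, differed by -1.81 ± 0.60 with all arrays and by -1.14 without control replicate 3.

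Of 39 other positional homeobox and T-box genes, 1 was higher and 3 were lower at p under 0.05, with a median of -0.08. These 4 (10.3%) are about the 9.78% share of all clusters, and those named are the ones with the smallest p. Meox2, a mesenchymal homeobox gene, read 7.43, 9.46 and 6.86 in control and 6.45, 6.24 and 4.85 in anti-PD-1 (-2.07 ± 0.74, adjusted p = 0.500), and differed by -1.30 without control replicate 3. Emx2 differed by -1.03 ± 0.39, and Lhx2, a hair follicle factor called in anti-PD-1 only, by 1.18 ± 0.45.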

How the data were processed

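RNA of 6 tumours was read on Clariom S Mouse arrays (250 ng per sample, per the labels' protocols). The deposited log2 signals per transcript cluster were made by the authors with the SST-RMA gene-level method and an mm10 annotation, per the file headers. Transcriptome Analysis Console is named, without a version, in the submitters' processing notes. The deposited table also holds log2 group averages, SDs and a signed fold (a score, control over anti-PD-1), p-values with FDR, and expressed calls, per the file headers; the rules behind them are not given there. A second deposited table held the same log2 signals (0 values differed). Array medians lay between 7.04 and 7.13.

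Of 22206 clusters, 3 without a symbol were left out. The other 22203, including 836 with several names, were fitted with lmFit and eBayes (limma 3.58.1, R 4.3.3), two-sided, without a block, with Benjamini-Hochberg adjustment over all of them at 0.05. The fit was tested on simulated data. For 3 against 3 an exact permutation test cannot give p under 0.1, so none was run. Replicate numbers 2 and 3 occur in both groups, but the labels do not say that they pair tumours.

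Full values were given for Hox rows with unadjusted p under 0.05 or called in 1 group and for the 2 expressed rows of each cluster with the widest range, and of each other list up to 3 genes with the smallest p. Other Hox rows given in full (Hoxa4, Hoxa5, Hoxa9, Hoxb4, Hoxb9, Hoxc6) were picked with their values in view. Counts and medians cover all rows, but not every row is reported singly here. The members and lists were chosen with earlier results of these data known. Alternatives were each array left out, the replicate block, other normalizations, filters and variance models, gene-level rows and the second table. Group medians and leaving out control replicates 2 and 3 together, in which the milk protein gene Csn2 was high, were added after seeing the data.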

Additional observations from a re-analysis of the deposited data

How the results depend on the processing

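No Hox row passed the adjusted threshold under any of the alternatives run with a test (limma), and for Hoxc10 the adjusted p lay between 0.211 and 0.916 over them. The count of rows at unadjusted p under 0.05, 6 with all arrays, ran from 1 to 8 with 1 array left out. The median Hox difference ran from -0.04 (without control replicate 3) to 0.31. With the replicate block 1 row had p under 0.05. Deviations of same-numbered arrays from their group means correlated over clusters at -0.20 for number 2 and -0.19 for number 3. The other pairs of a control and an anti-PD-1 array gave -0.06 to 0.25. Deviations within a group are not independent, so these values cannot decide whether the numbers pair tumours. The count without overlap stayed between 8 and 13. Of 238 values of 15 named rows under an alternative, 219 kept their direction and 19 reversed, and the cause was not tested. Without control replicate 3 these were Hoxa6 (-0.14), Hoxb6 (-0.47), Hoxc9 (-0.31) and Hoxd9 (-0.23), and without control replicates 2 and 3 Hoxa6 (-0.38), Hoxb1 (0.14), Hoxb6 (-0.30) and Hoxc9 (-0.68). With array weights, which gave control replicate 3 the lowest weight (0.34), they were Hoxa6 (-0.00061), Hoxb1 (0.0027), Hoxb6 (-0.16), Hoxc9 (-0.09) and Hoxd9 (-0.05). Hoxd9 was -0.08 with control replicate 4 left out. Leaving out anti-PD-1 replicate 3 gave -0.15 for Hoxd9 and -0.02 for Hoxb6, and Hoxb1 was 0.05 without anti-PD-1 replicate 2. By group medians Hoxb6 was -0.57, and with the replicate block the row of Hoxd3 and Hoxd4 was 0.04. With 1 array left out, the highest or lowest values on the other side were 0.64 for Hoxa6, -0.28 for Hoxb1, 0.75 for Hoxb6, 0.98 for Hoxc9 and 0.38 for Hoxd9. The 6 rows with p under 0.05, Hoxa7, Hoxb7 and Hoxc8 kept their direction throughout. What a difference in rows called in neither group can show is limited by that call, which is the authors' and whose rule is not known.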

Other observations

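Iroquois homeobox genes, picked with their values in view, were high in the array where the central Hox genes were low. Irx1 read 11.30 in control replicate 3 and 4.95 to 5.59 in the other 5 arrays, Irx2 13.98 against 9.76 to 10.76, and Irx3 13.48 against 8.70 to 9.46. Barx2, a homeobox gene of muscle and glands, read 10.21 there and 5.81 to 7.10 elsewhere. Hoxc8 is the one Hox row called in both groups with this order, at 11.84 against 8.73 to 10.03.

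In the authors' deposited table the direction of 8 of the 38 Hox rows opposes that of the group means, and Hoxb6 is the widest case, with a fold of 1.71 for control over anti-PD-1. Its group averages there are 7.50 and 6.73. The averages in that table equal the plain mean within 0.01 in 20.2% of all rows for control, and the sources used here do not state their rule.

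The antisense rows beside the clusters were not members. Hoxa11os was called in both groups and read 4.15, 4.05 and 4.02 in control and 4.49, 4.59 and 4.67 in anti-PD-1 arrays (0.51 ± 0.19, limma, adjusted p = 0.500), without overlap, while Hoxa11 itself was called in neither. Hoxd3os1 read 5.15, 6.38 and 6.19 in control and 5.54, 6.12 and 6.59 in anti-PD-1, with overlap.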
